A study of Mus musculus with 2 samples.

Results

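The Dynlt1 genes are near-identical copies of 1 light chain gene of cytoplasmic dynein, the motor that carries cargo along microtubules towards their minus ends. The 4 copies described here, Dynlt1a, Dynlt1b, Dynlt1c and Dynlt1f, were taken by name from the 32285 genes of the count tables. They were selected on a low KO/WT ratio of Dynlt1a in these same libraries, so every KO/WT value of a copy is a description with no test. The question was whether UMIs shifted between copies or whether the family as a whole changed.

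The study compared fetal livers at E14.5 from mouse embryos of the outbred strain CD1, either IκBα WT or IκBα KO, by droplet-based single-cell RNA sequencing (10x Genomics, 3′ v3 chemistry). IκBα, encoded by Nfkbia, is the inhibitor that keeps NF-κB in the cytoplasm, and the KO lacks it in all tissues. Cells were depleted of lineage-positive cells and sorted as LSK (lineage-negative, SCA1+, cKIT+), the fraction that holds hematopoietic stem cells (HSC) and multipotent progenitors. The WT library pooled 2 embryos and the KO library 3, so there was 1 library per genotype and no replicate. The kept cells were 3458 in WT (median 28065 UMIs, molecules counted by their unique identifiers) and 4417 in KO (median 19560), and 7 cell barcodes occurred in both libraries. Levels are given as CPM, the UMIs of a gene as counts per 1e6 UMIs of the same cells, and all intervals are 95% intervals that cover counting error only. Nfkbia had 13.6 CPM in WT and 0.0707 CPM in KO.

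The labels give neither the sex of the embryos nor their number per sex, and the libraries differed in it. Cells with a UMI of the Y-linked genes Ddx3y, Eif2s3y, Uty or Kdm5d and without Xist, the RNA that coats the inactive X chromosome, made up 0.116% of WT cells and 17.4% of KO cells (4 and 770 cells). These are called Y-positive cells. Cells with Xist and no Y-linked UMI are called Xist-positive, with 3315 cells in WT (95.9%) and 3066 in KO (69.4%). The main results are therefore also given within the KO library and among Xist-positive cells.

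As background, the dynein light chains dimerise and sit on the intermediate chains at the base of the motor. The Tctex1-type light chains, to which DYNLT1 and its relative DYNLT3 belong, are known as 1 of 3 light chain families next to the LC8 chains (Dynll1, Dynll2) and the roadblock chains (Dynlrb1, Dynlrb2). DYNLT1 has also been described as a binding partner of other proteins outside the motor. In the mouse the Dynlt1 copies lie in a cluster on chromosome 17.

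In the annotation of build GRCm38 (GENCODE vM21), Dynlt1a (ENSMUSG00000092074) occupied chr17:6306340-6317500 on the minus strand and Dynlt1b (ENSMUSG00000096255) chr17:6430112-6436296 on the plus strand. Dynlt1c (ENSMUSG00000000579) followed at chr17:6601671-6609774 on the plus strand and Dynlt1f (ENSMUSG00000095677) at chr17:6646602-6655900 on the minus strand. The gaps between neighbouring copies were 112611, 165374 and 36827 bases. All 4 are protein-coding with 5 exons in the transcripts compared here.

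How far reads can tell the copies apart was read from their annotated transcripts. From the start codon, 671 bases could be compared in all 4 copies, of which the first 342 are coding and the rest 3′ UTR. Over this stretch 4 positions varied, counted from 1 at the A of the start codon, 1 of them coding and 3 in the 3′ UTR. The coding sequences of Dynlt1a, Dynlt1c and Dynlt1f were identical, and the 4 predicted proteins of 113 amino acids were the same. The 4 positions are given here because they are the letters that separate the copies within this stretch, each written 5′ to 3′ on the strand of the gene, with the varying base in capitals.

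Dynlt1c, position 21, coding, exon 1, chr17:6601818-6601836, plus strand: cttccaggcctcCgaggag
Dynlt1b, position 21, coding, exon 1, chr17:6430220-6430238, plus strand: cttccaggcctcAgaggag
Dynlt1c, position 368, 3′ UTR, exon 5, chr17:6607585-6607609, plus strand: ctcagcctcgtgGtcccagcatttc
Dynlt1a, position 368, 3′ UTR, exon 5, chr17:6310835-6310859, minus strand: ctcagcctcgtgAtcccagcatttc
Dynlt1c, position 395, 3′ UTR, exon 5, chr17:6607612-6607636, plus strand: gtccatcttaacCaccagctatgtt
Dynlt1f, position 395, 3′ UTR, exon 5, chr17:6649202-6649226, minus strand: gtccatcttaacTaccagctatgtt
Dynlt1c, position 521, 3′ UTR, exon 5, chr17:6607738-6607762, plus strand: ctgtcatctgagAcaggcagtacca
Dynlt1a, position 521, 3′ UTR, exon 5, chr17:6310682-6310706, minus strand: ctgtcatctgagCcaggcagtacca

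Relative to Dynlt1c, Dynlt1f thus carried C395T, Dynlt1a carried G368A and A521C, and Dynlt1b carried C21A and A521C. Dynlt1a, Dynlt1b and Dynlt1f each had a position at which they alone differed. Dynlt1c had none, since at each of the 4 positions its base was shared by at least 1 other copy. Pairwise identity over the 671 bases ran from 99.6% (Dynlt1f against Dynlt1a or Dynlt1b) to 99.9% (Dynlt1c against Dynlt1f).

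A 3′ library reads mainly the 3′ end of a transcript, and the pipeline counts a read only when it maps to a single gene. The share of windows of 91 bases found in no other annotated gene was therefore taken over the last 500 bases of each transcript. It was 0% for Dynlt1b-201 and for Dynlt1c-201, 22.2% for Dynlt1f-201 and 47.3% for Dynlt1f-202. For Dynlt1a it was 56.6% in Dynlt1a-202, 64.6% in Dynlt1a-203 and 100% in Dynlt1a-201, whose 3′ UTR runs on to a stretch with no match in the others. The other Dynlt1c transcripts had 2.44% (Dynlt1c-202), 8.29% (Dynlt1c-203) and 100% (Dynlt1c-204, a short form of 493 bases that ends early). Windows of 50 and 75 bases gave 0% for the same 2 transcripts too. These shares are upper limits, because sequence outside annotated transcripts was not compared, and the read length is not given in the sources used here. Reads from Dynlt1b and Dynlt1c can therefore be counted from few places, the levels of the copies cannot be compared with each other as amounts of RNA, and their UMIs are uncertain as to the copy they came from.

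In all kept cells the summed UMIs of the 4 copies were lower in KO than in WT, and their makeup differed as well. The family had 8239 UMIs in WT, or 76.1 CPM (74.4 to 77.7), and 4667 UMIs in KO, or 47.1 CPM (45.8 to 48.5). The log2 KO/WT ratio of the sum was -0.69 (-0.74 to -0.64), a level in KO 0.619 times that in WT. The sum was thus not level between the libraries. In bulk sums like these, fewer cells that express a gene and less RNA per cell cannot be told apart.

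Dynlt1f, the copy with the most UMIs, went from 4960 UMIs in WT to 2413 in KO. That is 45.8 CPM (44.5 to 47.1) against 24.4 CPM (23.4 to 25.3), a log2 KO/WT of -0.91 (-0.98 to -0.84). Dynlt1a went from 1730 to 723 UMIs. Its levels were 16.0 CPM (15.2 to 16.7) and 7.30 CPM (6.78 to 7.85), a log2 KO/WT of -1.13 (-1.26 to -1.004). Dynlt1f in KO was thus at 0.532 times and Dynlt1a at 0.457 times its WT level. Dynlt1b had 67 UMIs in WT and 23 in KO, 0.619 and 0.232 CPM, and its log2 KO/WT of -1.41 had the widest interval (-2.16 to -0.71).

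Dynlt1c did not share this direction in the pooled cells. It had 1482 UMIs in WT and 1508 in KO, which is 13.7 CPM (13.0 to 14.4) and 15.2 CPM (14.46 to 16.0), with a log2 KO/WT of 0.15 (0.05 to 0.26). Among Xist-positive cells the sign turned, from 13.7 CPM in WT down to 12.2 CPM in KO, with a log2 ratio of -0.18 (-0.30 to -0.05). The direction of Dynlt1c in KO against WT thus depended on the Y-positive and unassigned cells of the KO library.

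Of the 4 copies, 3 lay at a log2 KO/WT of -0.5 or below and none at 0.5 or above. Of all 15085 genes with at least 20 UMIs, 4.19% lay at -0.5 or below and 6.76% at 0.5 or above, and the median log2 KO/WT over these genes was 0.01. The copies were selected on this contrast, and nothing is read from their count.

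Read as a makeup of the family, the share of UMIs counted for Dynlt1c was higher in KO. Dynlt1c gave 18.0% (17.2 to 18.8) of the family's UMIs in WT and 32.3% (31.0 to 33.7) in KO, a difference of 14.3 percentage points (12.7 to 15.9). Dynlt1f gave 60.2% in WT and 51.7% in KO, and Dynlt1a 21.0% and 15.5%. Dynlt1b was the smallest part in both, with 0.813% and 0.493%. The makeup and the sum of the counted UMIs therefore both differed between the libraries. The copies differ in how many reads can be counted, so a shift between copies and a change of family RNA cannot be told apart.

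**Figure D1:**
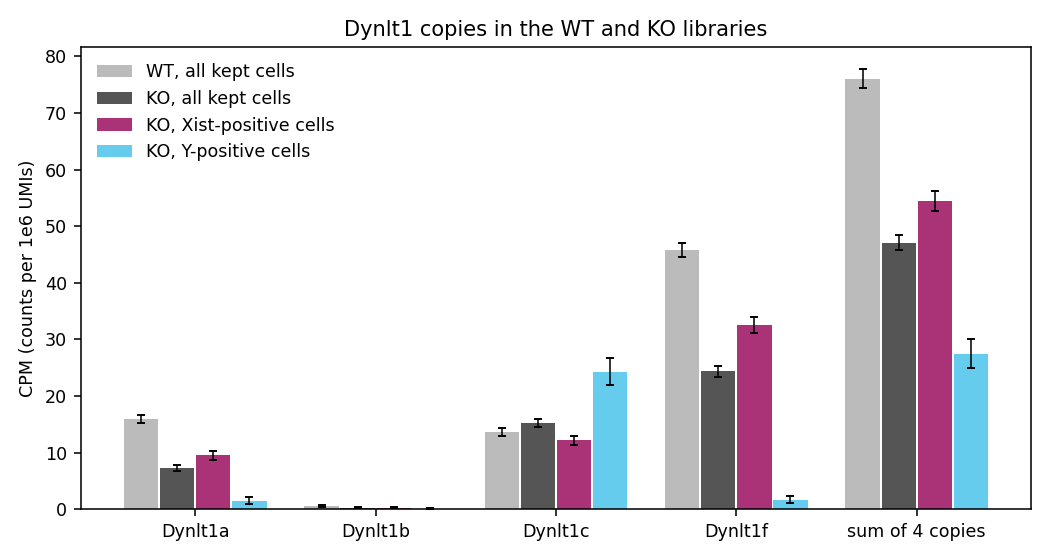
Level of each Dynlt1 copy and of their sum in CPM (y axis), in all kept WT and KO cells and in the Xist-positive and Y-positive cells of the KO library, with exact Poisson 95% intervals as error bars. Dynlt1a and Dynlt1f are lower in KO than in WT and near 0 in Y-positive KO cells, where Dynlt1c is highest at 24.3 CPM.

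Within the KO library the copies differed between Y-positive and Xist-positive cells. In the 770 Y-positive cells, Dynlt1f had 28 UMIs, or 1.62 CPM (1.07 to 2.34), against 2182 UMIs, or 32.6 CPM (31.2 to 34.0), in the 3066 Xist-positive cells. Its level was 20.1-fold lower in Y-positive cells, a log2 ratio of -4.33 (-4.92 to -3.80). Dynlt1a was 6.34-fold lower, with 26 UMIs (1.501 CPM) against 638 UMIs (9.52 CPM). Dynlt1b had 0 UMIs in Y-positive cells, where a count of 0 allows up to 0.173 CPM, against 18 UMIs or 0.269 CPM in Xist-positive cells. Dynlt1c moved the other way.

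Dynlt1c had 421 UMIs, or 24.3 CPM (22.0 to 26.7), in Y-positive cells and 815 UMIs, or 12.2 CPM (11.3 to 13.0), in Xist-positive cells. The log2 ratio was 1.00 (0.83 to 1.17). It gave 88.6% (85.4 to 91.3) of the family's UMIs in Y-positive cells and 22.3% (21.0 to 23.7) in Xist-positive cells. In counted UMIs the rise of Dynlt1c did not make up for the other copies. The family sum was 27.4 CPM (25.02 to 30.01) in Y-positive and 54.5 CPM (52.7 to 56.3) in Xist-positive cells. Reads of Dynlt1c can be counted from few places, so a sum of UMIs need not follow the RNA of the family. Of the 13709 genes that reached 20 UMIs over these KO cells, 9.96% lay at a log2 ratio of -0.5 or below and 5.93% at 0.5 or above, with a median of 0.00. Dynlt1a and Dynlt1f were among the first and Dynlt1c among the second, while Dynlt1b with 18 UMIs did not reach the minimum.

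The median depth of these cells was similar, 20850 UMIs in Y-positive and 19327.5 in Xist-positive cells. The KO library also held 281 cells with both Xist and Y-linked UMIs, at a median of 34958 UMIs, and 300 with neither, at 13681 UMIs. Dynlt1c gave 46.4% of the family's UMIs in the cells with both and 62.1% in those with neither, between the values of the other two groups. The 3 KO embryos differ from each other in more than their sex, and sex and embryo cannot be told apart in a pooled library.

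Leaving out all but the Xist-positive cells in both libraries left the family lower in KO. The sum was 75.9 CPM (74.3 to 77.6) for WT against 54.5 CPM for KO, a log2 ratio of -0.48 (-0.54 to -0.42) against -0.69 in all cells. Dynlt1a was at 16.1 and 9.52 CPM, a log2 ratio of -0.76 (-0.89 to -0.62), and Dynlt1f at 45.5 and 32.6 CPM, a log2 ratio of -0.48 (-0.56 to -0.41). At a log2 ratio of -0.5 or below were Dynlt1a and Dynlt1b, beside 4.24% of all 14781 genes. The makeup differed less than in all cells, with Dynlt1c 4.204 percentage points (2.61 to 5.82) higher in KO and Dynlt1f within 0.178 points of its WT share (interval of the difference -2.12 to 1.75). Among Xist-positive cells the 3 larger copies were thus all lower in KO, and the shift in makeup was smaller. The WT library had too few Y-positive cells for a comparison of Y-positive cells between genotypes.

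Single cells were also sorted by how their own UMIs were divided. Of WT cells with exactly 2 family UMIs, 35 of 652 (5.37%) had both from Dynlt1c, 30.1% had 1 and 64.6% had none. Xist-positive KO cells were close to this, with 6.67%, 30.7% and 62.7% of 525 cells. Of Y-positive KO cells, 59 of 72 (81.9%) had both from Dynlt1c and 13 had 1, and in 0 of 72 cells did both UMIs come from the other copies, which allows a share of up to 4.17%. These cells hold part of the same UMIs as the summed shares above, so the split is not separate evidence for a difference between cells. With 3 family UMIs, 15 of 19 Y-positive cells had all of them from Dynlt1c, against 2 of 259 Xist-positive cells.

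**Figure D2:**
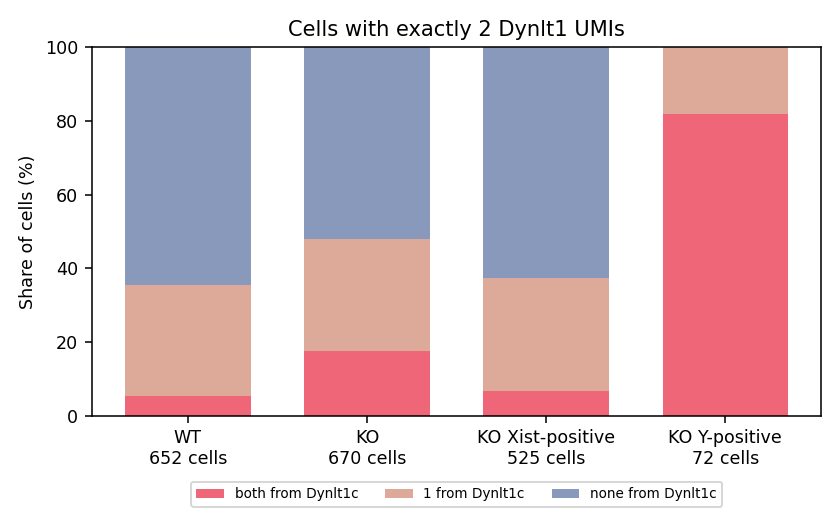
Cells with exactly 2 UMIs of the Dynlt1 family, divided by how many of the 2 came from Dynlt1c, as the share of cells (y axis) in WT, KO, Xist-positive KO and Y-positive KO cells, with the number of cells under each bar. Both UMIs came from Dynlt1c in 81.9% of Y-positive KO cells and in 6.67% of Xist-positive KO cells.

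To compare cells at the same depth, each cell was thinned to 10000 UMIs, which left out 211 WT and 572 KO cells that were shallower. At this depth a Dynlt1f UMI was found in 35.0% of WT cells (33.4 to 36.7) and in 20.5% of KO cells (19.2 to 21.8), against 65.4% and 34.5% before thinning. For Dynlt1a the thinned shares were 13.6% and 7.44%, against 35.4% and 14.1% unthinned. For Dynlt1c they were 13.0% and 13.6%, while the unthinned shares of 31.4% and 26.4% ran the other way. In Y-positive KO cells 1.41% had a Dynlt1f UMI and 20.8% a Dynlt1c UMI after thinning. Every class of cells in these libraries had family UMIs, so no cell type that lacks the family was at hand for the background from free RNA.

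Cells were then placed in 10 classes by marker genes, and the cells that passed no gate were kept as ungated. The gate scored marker genes only, none of them a Dynlt1 copy. Each of the 10 classes was led by genes of its own kind, but gate markers were among them, so this does not check the gate. HSC-gated cells (311 WT, 263 KO) were led by Mecom, Hlf and Procr, which the gate itself used. Erythroid-gated cells (1227 WT, 1752 KO) were led by globin genes and Slc4a1, which it did not use. The ungated cells (1478 WT, 1718 KO) were led by Cd48 and Cd34. The gate also found cells that an LSK sort should hold few of, 32 WT and 66 KO hepatocyte-gated, 61 and 81 endothelial-gated and 42 and 91 macrophage-gated cells. HSC-gated cells were shallower than the rest, with medians of 13850 UMIs in WT and 9587 in KO.

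The family sum was lower in KO in all 11 classes. The log2 KO/WT of the sum ran from -0.77 in megakaryocyte-gated to -0.55 in monocyte and dendritic-gated cells, with a median over classes of -0.66. In HSC-gated cells the WT level was 91.5 CPM (83.0 to 101) and the KO level 60.5 CPM (51.8 to 70.3), a log2 ratio of -0.60 (-0.86 to -0.34). In erythroid-gated cells it was 63.8 CPM (61.4 to 66.2) and 40.1 CPM (38.2 to 42.1), a log2 ratio of -0.67 (-0.76 to -0.58). In ungated cells it was 83.8 and 51.6 CPM, a log2 ratio of -0.70 (-0.78 to -0.62). Among Xist-positive cells the sum was lower in KO in all 11 classes as well, but by less. The log2 ratios there ran from -0.62 in megakaryocyte-gated to -0.10 in mast and basophil-gated cells, with a median of -0.45, and the interval lay below 0 in 8 classes.

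The share of all genes at or below -0.5, among those with at least 20 UMIs in the class, was 6.98% in HSC-gated, 2.99% in erythroid-gated and 4.46% in ungated cells. It was 6.52% in lymphoid-primed, 5.65% in neutrophil-primed, 9.42% in monocyte and dendritic-gated and 7.86% in megakaryocyte-gated cells. In the smallest classes it was 11.4% in mast and basophil-gated, 7.53% in macrophage-gated, 8.71% in endothelial-gated and 7.49% in hepatocyte-gated cells. The contrast is the one the copies were selected on, and the classes share the same 2 libraries, so they are not replicates.

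Dynlt1f was at -0.5 or below in all 11 classes, from -1.12 in macrophage-gated to -0.54 in monocyte and dendritic-gated cells. In HSC-gated cells it had 259 UMIs in WT and 104 in KO, 56.9 CPM (50.1 to 64.2) against 36.8 CPM (30.1 to 44.6). Among Xist-positive cells Dynlt1f was lower in 10 classes and higher in mast and basophil-gated cells (0.04), with a median of -0.46 and intervals below 0 in 6 classes. Dynlt1a reached the minimum of 20 UMIs in 10 classes and was lower in KO in 9 of them, each time at -0.5 or below, down to -1.64 in hepatocyte-gated cells. The exception was the lymphoid-primed class, where 16 WT and 17 KO UMIs gave 6.52 and 7.82 CPM and a log2 ratio of 0.26 whose interval (-0.81 to 1.34) covers both directions. Among Xist-positive cells Dynlt1a was again lower in 9 of these 10 classes, with a median of -0.78 and intervals below 0 in 5, and it was at 0.45 in the lymphoid-primed class. Dynlt1b reached the minimum only in erythroid-gated cells, with 23 and 9 UMIs, and in ungated cells, with 32 and 9.

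Dynlt1c had a log2 KO/WT interval above 0 in 1 class and below 0 in none. It was higher in KO in 7 classes and lower in 4, with log2 ratios from -0.35 to 0.78. It was lowest in HSC-gated cells, with 99 UMIs in WT and 48 in KO, or 21.7 CPM (17.7 to 26.5) and 16.99 CPM (12.5 to 22.5), and the interval of that ratio (-0.88 to 0.16) includes 0. In erythroid-gated cells it was higher in KO, with a WT level of 11.1 CPM (10.2 to 12.2) and a KO level of 14.4 CPM (13.3 to 15.6), a log2 ratio of 0.37 (0.20 to 0.55). There 344 of 1752 KO cells were Y-positive, and among Xist-positive erythroid-gated cells the ratio was -0.05 (-0.26 to 0.16). Whether Dynlt1c differed between classes in its KO/WT ratio was not tested.

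**Figure D3:**
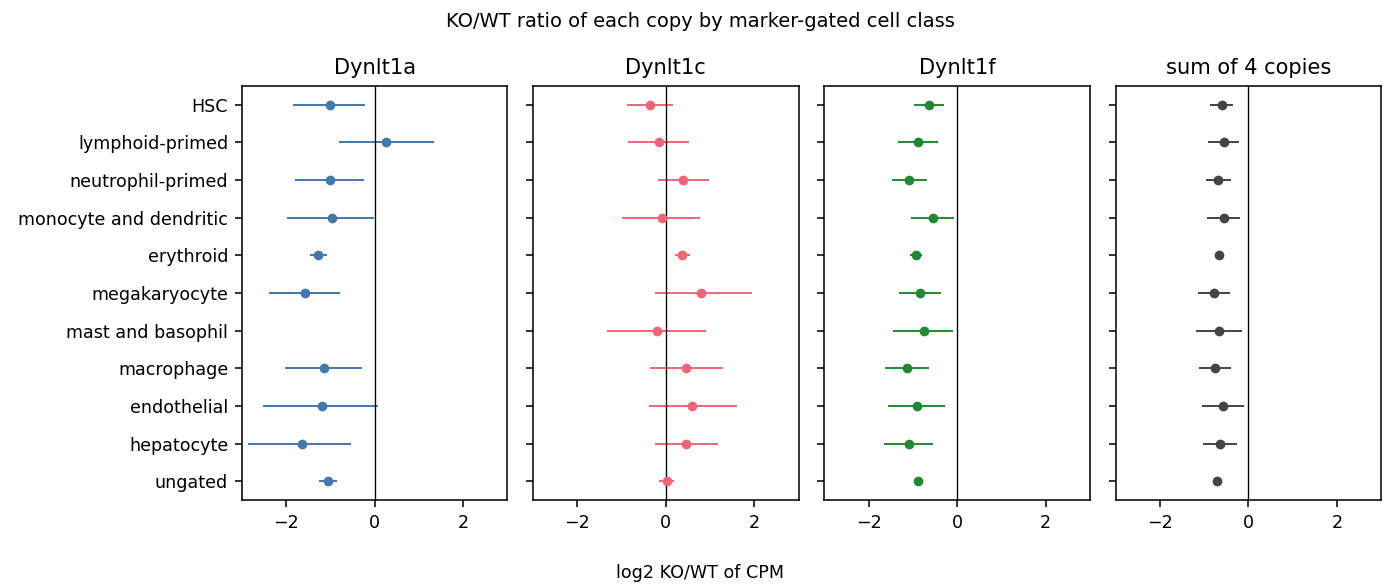
Log2 KO/WT of CPM (x axis) for Dynlt1a, Dynlt1c, Dynlt1f and the sum of the 4 copies in each marker-gated class and in ungated cells (rows), with exact 95% counting intervals as bars. Points need at least 20 UMIs. Dynlt1f and the sum lie below 0 in all 11 classes, and Dynlt1c lies on either side of 0.

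The Dynlt1c share of the family's UMIs was higher in KO in all 11 classes, by 4.33 percentage points in HSC-gated to 24.6 points in hepatocyte-gated cells. In HSC-gated cells it was 23.7% (19.7 to 28.1) in WT and 28.1% (21.5 to 35.4) in KO, intervals that overlap. In hepatocyte-gated cells it was 21.7% (14.9 to 29.8) and 46.3% (36.7 to 56.2). In erythroid-gated cells it was 17.5% and 36.0%. Among Xist-positive cells the KO share was higher in 7 classes and lower in 4, with differences from -4.65 points in lymphoid-primed to 14.4 points in hepatocyte-gated cells. In HSC-gated Xist-positive cells the difference was -2.19 points (-10.04 to 6.58).

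Inside the KO library Dynlt1f was lower in Y-positive than in Xist-positive cells in all 11 classes and had 0 UMIs in the Y-positive cells of 6 of them. Those 6 classes were small, from 9 Y-positive cells (monocyte and dendritic-gated) to 17 (lymphoid-primed). In ungated cells it had 7 UMIs against 985, or 1.13 against 38.5 CPM, and in erythroid-gated cells 17 against 692, or 2.09 against 24.3 CPM. In HSC-gated cells, with only 31 Y-positive and 197 Xist-positive cells, Dynlt1f had 1 UMI against 95 and Dynlt1c 8 against 29. The family sum was lower in Y-positive cells in all 11 classes, with log2 ratios from -1.71 to -0.47, and the interval lay below 0 in 5 of them. Dynlt1c reached the minimum of 20 UMIs in 9 classes and was higher in Y-positive cells in 8 of them, with the interval above 0 in 3. The exception was the hepatocyte-gated class, at 19.3 CPM in Y-positive and 20.4 CPM in Xist-positive cells. Dynlt1a reached it in 3 classes and was lower in Y-positive cells in each.

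**Figure D4:**
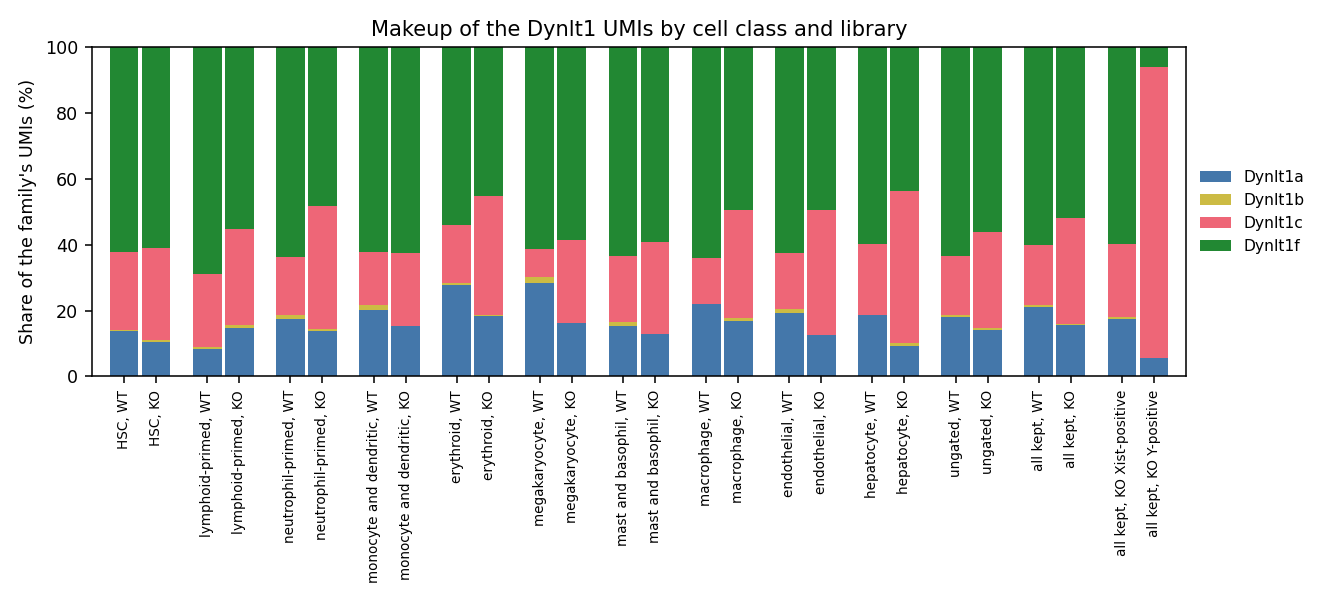
Share of the family's UMIs counted for each copy (y axis, %) in WT and KO by marker-gated class, in all kept cells, and in Xist-positive and Y-positive KO cells. Dynlt1c takes 88.6% of the UMIs in Y-positive KO cells, against 22.3% in Xist-positive KO cells and 18.0% in WT.

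The family level also varied across classes. In WT the sum was highest in macrophage-gated cells at 98.1 CPM (83.3 to 115), then in HSC-gated cells at 91.5 CPM, and lowest in erythroid-gated cells at 63.8 CPM. The 8 classes between HSC-gated and erythroid-gated cells lay from 75.5 to 86.9 CPM, and neighbours in this order had overlapping intervals. In KO the order began with HSC-gated cells at 60.5 CPM and macrophage-gated cells at 58.1 CPM and again ended with erythroid-gated cells at 40.1 CPM. These KO values pool Y-positive and Xist-positive cells. Among Xist-positive KO cells the order differed, and mast and basophil-gated (80.3 CPM), macrophage-gated (74.2 CPM) and neutrophil-primed cells (67.3 CPM) lay above HSC-gated cells (64.2 CPM). With globin, mitochondrial and ribosomal protein genes taken out of the total, which are 39.9% of the UMIs of WT erythroid-gated cells, the WT values were 106 CPM in erythroid-gated and 146 CPM in HSC-gated cells, with hepatocyte-gated cells also at 106 CPM.

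The sum was also compared between cells with a high score for G2/M genes, which peak before division, and the other cells. In WT the sum was 73.5 CPM in 1857 high-scoring and 80.3 CPM in 1601 other cells, a log2 ratio of -0.13 (-0.19 to -0.06), and in KO 46.3 and 48.8 CPM, a log2 ratio of -0.07 (-0.16 to 0.01). The KO values were thus below the WT values in both sets of cells. In WT erythroid-gated cells the log2 ratio of high-scoring against other cells was -0.26 (-0.37 to -0.14) for the sum. In KO HSC-gated cells Dynlt1f was higher in the high-scoring cells, at 46.5 against 28.7 CPM, a log2 ratio of 0.70 (0.11 to 1.29). That ratio rests on 60 and 44 UMIs and pools Y-positive and Xist-positive cells. For the sum in the same KO cells it was 0.40 (-0.05 to 0.85). In WT HSC-gated cells the Dynlt1f ratio was 0.00 (-0.38 to 0.37).

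The genes around the copies were examined over a window from 250 kb before Dynlt1a to 250 kb after Dynlt1f. Of the 6 other genes in it with at least 20 UMIs, none lay at a log2 KO/WT of -0.5 or below. None lay at 0.5 or above, and their median was 0.01. Over all tested genes these shares were 4.19% and 6.76%, so nothing is read from a count over 6 genes. Gtf2h5, a subunit of the repair and transcription factor TFIIH, had 198 CPM in WT and 196 CPM in KO, and Ezr, which links actin to the membrane, had 70.9 and 72.2 CPM. The intervals of both ratios included 0. Tulp4 was at 4.76 and 5.29 CPM.

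Tmem181a overlaps the end of Dynlt1a by 1975 bases on the opposite strand, and was the lowest of these genes. It had 387 UMIs in WT and 270 in KO, 3.57 and 2.73 CPM, a log2 KO/WT of -0.39 (-0.62 to -0.16). Rsph3b, a radial spoke gene, had 1.94 and 1.62 CPM, with an interval of -0.57 to 0.04. In Y-positive against Xist-positive KO cells these same 2 genes were at -0.83 (-1.43 to -0.27) and -0.78 (-1.59 to -0.06), from 30 and 18 Y-positive UMIs, while Gtf2h5 was at -0.03 and Ezr at 0.04. Serac1 was at 0.83 from only 17 Y-positive UMIs, with an interval of -0.09 to 1.70. An RNA gene, Gm26848, overlaps Dynlt1b along its whole length on the same strand and part of Dynlt1a.

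**Figure D5:**
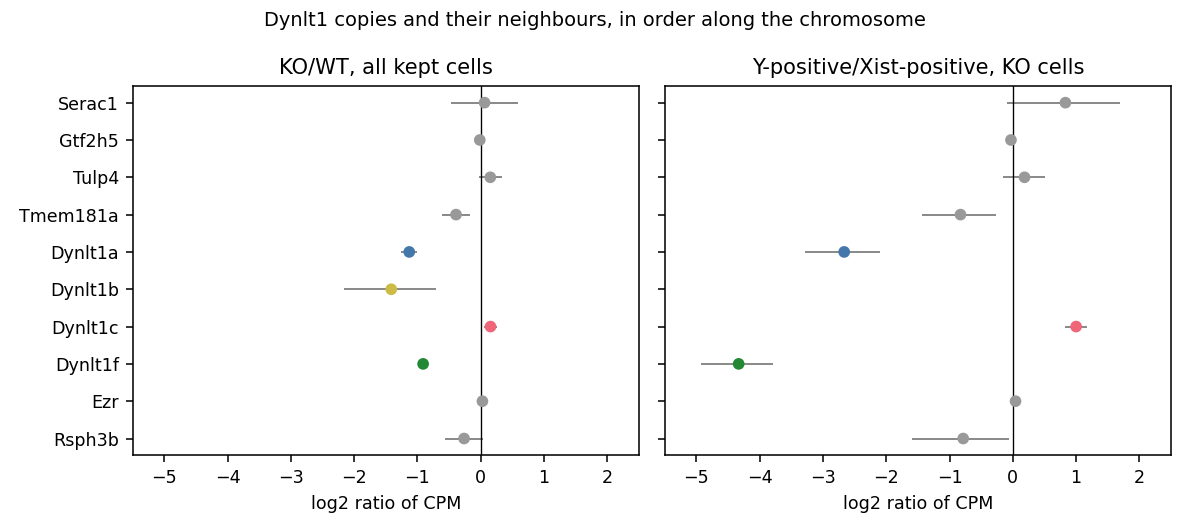
Log2 ratio of CPM (x axis) for the Dynlt1 copies (coloured) and their neighbours (grey), in chromosome order from top to bottom, for KO/WT in all kept cells on the left and for Y-positive against Xist-positive KO cells on the right, with exact 95% counting intervals. Dynlt1b has no point on the right because it had 0 UMIs in Y-positive cells.

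Other genes of the dynein machinery were compared over all kept cells, where 4.19% of all tested genes lay at -0.5 or below and 6.76% at 0.5 or above. Of 9 subunits of cytoplasmic dynein 1, 7 had at least 20 UMIs, and 0 of these lay past a log2 KO/WT of 0.5 in either direction, with a range of -0.03 to 0.08 and a median of 0.03. In HSC-gated cells, with fewer UMIs, their range was -0.05 to 0.45. The heavy chain gene Dync1h1, the motor itself, had 41.2 CPM in WT and 42.4 CPM in KO. The intermediate chain gene Dync1i2, whose product binds the light chains, had 74.2 and 78.3 CPM. The light chains of the other families were near level as well, with Dynll1 at 728 and 715 CPM and Dynlrb1 at 137 and 135 CPM.

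Among the Tctex1-type relatives, 3 of 5 had at least 20 UMIs. Dynlt3, the other Tctex1-type light chain of the motor, had 34.7 CPM in WT and 32.7 CPM in KO, a log2 KO/WT of -0.09 (-0.15 to -0.02), and Tctex1d2 had 14.51 and 13.8 CPM. Tcte3 was past 0.5, at 0.166 and 0.373 CPM. In Y-positive against Xist-positive KO cells Dynlt3 was at 0.09 (-0.04 to 0.22). Dynlt3 was thus close to level in both comparisons.

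Of the 12 dynactin genes, whose complex couples the motor to cargo, 0 were past 0.5, with a range of -0.07 to 0.23 and a median of 0.00. Dctn1, the large subunit that binds microtubules, had 21.1 and 24.8 CPM. Of 13 regulators and adaptors, 1 was past 0.5, a share close to that of all genes, namely Rilp, an adaptor of late endosomes, with 0.295 and 0.646 CPM. In HSC-gated cells 12 of the 13 had a ratio, from -0.98 to 0.53. Pafah1b1, encoding the motor's regulator LIS1, had 140 and 143 CPM. In Y-positive against Xist-positive KO cells, 0 dynein subunits and 0 dynactin genes were past 0.5 in either direction. Over all genes in that comparison, 9.96% lay at -0.5 or below and 5.93% at 0.5 or above. Rilp was at 0.59 from 14 Y-positive UMIs.

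The genes most like the copies were sought over 22 points, the 11 classes in each library, among 10016 genes with at least 500 UMIs, by Pearson's r of log2(CPM + 1). The family sum was most like Nfkbia (r = 0.93), followed by the ribosomal protein genes Rpl38 (0.88) and Rpl35 (0.86), with the predicted gene Gm10076 between them (0.87) and Rps29 after them (0.84). Dynlt1f had the same 5 genes, led by Rpl38 (0.91). Dynlt1a was most like Gm10076 (0.81), Gm15915 (0.78) and Nfkbia (0.77), then Ndufb1-ps (0.74) and Wdr83os (0.73). Dynlt1b, with few UMIs, was most like Tyw5 (0.66), Gm15915 (0.64), Arl16 (0.62), Gm20707 (0.61) and Wdr70 (0.58).

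Dynlt1c had another set, Zfp609, Krtcap3, Gigyf1, Tbc1d15 and Hopx, with r between 0.74 and 0.76. The points share 2 libraries, and genes that differ between the libraries in every class score high on this measure. Nfkbia is the deleted gene, Gm15915 was at 35.8 CPM in WT but 0.242 in KO, and Gm10076 was at 1452 and 794 CPM. Of the 5 genes most like Dynlt1c, Zfp609 was at 10.6 and 11.3 CPM, and Krtcap3 differed most between the libraries, at 3.54 and 4.66 CPM (log2 KO/WT 0.40).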

How the data were processed

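Single-cell RNA-seq of 1 WT and 1 KO library was analysed. The authors deposited unnormalised UMI counts of each gene in each cell, made with Cell Ranger 6.0.0 on build mm10 (GRCm38) per the file headers and the submitters' processing notes. The annotation release is not given in the sources used here. The titles name LT-HSC, and the cell type entry and protocol name LSK, which was used. Members and lists were chosen with earlier results of these data known.

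The cell filter required 1000 detected genes and a mitochondrial share of UMIs of 20% or less (382 of 3840 WT and 511 of 4928 KO barcodes removed). Scrublet (scanpy 1.11.5) called 3.79% of WT and 5.66% of KO cells doublets, which were kept except in an alternative. Classes used marker UMIs per 10000, each capped at its 99th percentile (at least 0.2) and averaged. A cell entered its top class at a score of at least 0.25 and 1.25 times the next. The score was set after seeing the gate's sizes, and up to 731 cells of 1 class and library lay within 0.05 of it. Cells scoring at least 0.2 for G2/M genes were called high.

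No test was run, since each genotype had a single library. Summed counts were given as CPM with exact Poisson intervals, log2 ratios with exact conditional intervals from at least 20 UMIs, and shares with Clopper-Pearson intervals (95%, Python 3.11.15, scipy 1.17.1). A count of 0 allows up to 3 counts. The interval function was tested on simulated data. Named genes were the members, Nfkbia, lists of light chains, dynein, dynactin, regulators and adaptors, genes within 250 kb, and the 5 genes of highest r per copy and for the sum. Sequences came from GENCODE vM21.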

Additional observations from a re-analysis of the deposited data

How the results depend on the processing

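No paired analysis was possible because WT and KO are represented by a single library each. The sum, the copies, their shares and the ratios of Y-positive against Xist-positive KO cells were recomputed under 88 combinations of result and setting. Of these, 74 values stayed within the counting interval of the value reported. The setting with a minimum of 50 UMIs only leaves out results with fewer UMIs and cannot move a value. Its combinations are among the 74 by construction. Among all kept cells that were Xist-positive, the log2 KO/WT was -0.48 for the sum, -0.76 for Dynlt1a and -0.48 for Dynlt1f. Dynlt1c reversed to -0.18. The KO minus WT shares then were -3.71 points for Dynlt1a, 4.204 for Dynlt1c and -0.18 for Dynlt1f. With cells thinned to 10000 UMIs the log2 KO/WT was -0.96 for Dynlt1a, -2.98 for Dynlt1b, 0.0386 for Dynlt1c and -0.83 for Dynlt1f, and the shares were -3.87, -0.653 and 11.6 points for Dynlt1a, Dynlt1b and Dynlt1c. Thinning weights cells equally, leaves out shallow cells and left Dynlt1b with UMIs in 20 WT and 3 KO cells. The cause of the other moves was not tested.

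For the copies and their sum within classes, 452 of 475 values stayed within their intervals and 464 kept their sign. These counts again include the values at a minimum of 50 UMIs, which cannot move. Of the called values, 3 reversed. These were Dynlt1c in erythroid-gated Xist-positive cells (-0.0504), Dynlt1f in mast and basophil-gated Xist-positive cells (0.0356) and Dynlt1a in thinned monocyte and dendritic-gated cells (0.0637). Besides these, keeping Xist-positive cells only moved 12 values beyond their intervals, thinning 6 and the stricter gate (0.35) 2. The ratios of Y-positive against Xist-positive KO cells stayed within their intervals when at least 2 Y-linked UMIs were required. They also did so when CPM was averaged over cells. Removing the filter on cells, requiring at least 2000 genes and leaving out called doublets kept all of these results within their intervals. The same held for other denominators or scalings and for the looser gate (0.2). With 1 library per genotype, differences between embryos, libraries and genotypes cannot be told apart, and depth limits Dynlt1b in every class.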
